A study of Mus musculus with 6 samples.

Results

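Cholesterol genes were followed in CMT93, an established cell line from a mouse colorectal carcinoma, grown as spheroids with 200 µM palmitate or with vehicle. The genes were chosen by name: 33 symbols for enzymes of cholesterol synthesis and for proteins of its uptake, storage, export and control, of which 32 had a row among the 23399 genes of the count table. Abca1 was not analysed here. The palmitate group was 3 wild-type samples given sodium palmitate, a saturated fatty acid, dissolved in ethanol and bound to bovine serum albumin, and the vehicle group was 3 wild-type samples given the same ethanol and albumin without the fatty acid. Both groups spent 1 week in monolayer and then 5 days as spheroids on soft agar with Matrigel in serum-containing medium, and all samples came from 1 cell line. Replicate numbers are given without a statement that each was its own culture. The p-values therefore cover the spread among 3 libraries a group, which may be only technical.

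Animal cells make cholesterol from acetyl-CoA by way of mevalonate, the isoprenoid farnesyl diphosphate, squalene and lanosterol. The transcription factor SREBP2, the product of Srebf2, switches on nearly every enzyme of that route when membranes of the endoplasmic reticulum are short of sterol: SCAP then carries it to the Golgi for cleavage, and INSIG proteins hold SCAP back when sterol is plentiful. The liver X receptors (LXR), products of Nr1h2 and Nr1h3, work in the other direction: they bind oxysterols, which form when cholesterol is in excess, and switch on genes of cholesterol export. In what follows, 21 of the genes are taken as SREBP2 targets, and Abcg1 and Mylip as LXR targets.

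Libraries held 22.5 to 22.9 M counts with palmitate and 18.9 to 21.9 M with vehicle, so the palmitate libraries were deeper. Epithelial markers were abundant in both groups, 8 of the 9 with a row reaching 1 CPM (counts normalised to library size and scaled by TMM), and their summed level was 6604 to 6700 CPM with palmitate and 7228 to 7302 CPM with vehicle. Within that list Krt8, Krt18, Cdh1 and Cdh17 were lower with palmitate and Krt19 and Cdx2 higher (adjusted p below 0.05, edgeR). Of 4 immune markers with a row, 1 reached 1 CPM, and their sum was 9.58 to 10.7 CPM with palmitate and 7.18 to 8.94 CPM with vehicle. That sum was mostly Cd68, while Ptprc, the marker of all leukocytes, stood at 0.266 CPM with palmitate and 0.835 CPM with vehicle and was lower (log2 fold change -1.62, adjusted p = 6.19e-05, edgeR). Of 4 endothelial markers 1 reached 1 CPM, with sums of 1.64 to 1.94 CPM with palmitate and 2.32 to 2.95 CPM with vehicle. None of 3 fibroblast markers or of 1 adipocyte marker reached 1 CPM. The part of these markers in the results was not tested. In such bulk samples, fewer cells of a type and less RNA per cell cannot be told apart.

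Promoters of 4 SREBP2 targets are shown because these genes had the smallest p-values of that group, Hmgcs1 and Lss among those that were lower with palmitate and Cyp51 and Insig1 among those that were higher. Each run is the 250 bases before the gene's start, 5′ to 3′ on the gene's strand, from RefSeq on build GRCm38.p6, which is earlier than the build of the counts. Capitals mark the core of a sterol regulatory element, spelled CACNCCAC, and the CCAAT box bound by NF-Y, a partner of SREBP2, each searched on both strands, with no overlap between them in these runs.
Hmgcs1, chr13:119690101-119690350, plus strand: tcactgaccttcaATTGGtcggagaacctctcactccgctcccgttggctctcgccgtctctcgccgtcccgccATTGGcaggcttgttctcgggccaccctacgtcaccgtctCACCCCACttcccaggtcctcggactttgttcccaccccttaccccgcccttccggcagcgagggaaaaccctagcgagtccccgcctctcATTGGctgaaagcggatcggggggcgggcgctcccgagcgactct
Lss, chr10:76531355-76531604, plus strand: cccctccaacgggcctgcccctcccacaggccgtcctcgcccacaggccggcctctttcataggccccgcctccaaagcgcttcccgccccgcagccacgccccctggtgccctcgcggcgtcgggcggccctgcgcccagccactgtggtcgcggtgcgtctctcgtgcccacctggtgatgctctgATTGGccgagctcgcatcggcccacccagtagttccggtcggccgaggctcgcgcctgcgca
Insig1, chr5:28071162-28071411, plus strand: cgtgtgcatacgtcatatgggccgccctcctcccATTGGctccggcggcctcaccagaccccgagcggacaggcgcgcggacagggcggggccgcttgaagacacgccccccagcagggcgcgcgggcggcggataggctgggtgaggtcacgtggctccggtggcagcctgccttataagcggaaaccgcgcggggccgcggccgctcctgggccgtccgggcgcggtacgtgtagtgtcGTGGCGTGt
Cyp51, chr5:4104698-4104947, minus strand: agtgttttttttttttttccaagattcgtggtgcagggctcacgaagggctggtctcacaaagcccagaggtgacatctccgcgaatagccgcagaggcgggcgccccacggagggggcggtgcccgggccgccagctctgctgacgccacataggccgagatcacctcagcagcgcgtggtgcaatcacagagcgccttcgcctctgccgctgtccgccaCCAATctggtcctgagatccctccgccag

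The Hmgcs1 run held 1 sterol element core, 136 to 129 bases before the start, and the Insig1 run held 1 on the opposite strand, 9 to 2 bases before it. A CCAAT box was present in each of the 4 runs, on the opposite strand in Hmgcs1, Lss and Insig1 and on the gene's own strand in Cyp51. Among all 32841 promoters of this length the sterol element core occurred in 5.29% and the CCAAT box in 33.9%. Of the 26 analysed genes with a promoter in the table, 3 held the core (Hmgcs1, Insig1 and Acat2) and 22 held a CCAAT box. A gene was counted if any of its promoters held the match, while the shares above are of single promoters, so they are not alike. These are matches of letters in a window and say nothing of binding. Fdps, Fdft1, Sqle, Stard4, Npc1 and Abcg1 had no entry.

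The cholesterol route stood close to its vehicle level in spheroids grown with palmitate. Of 31 genes deep enough to test, 8 were higher and 11 lower with palmitate with an adjusted p below 0.05 (quasi-likelihood test of edgeR, two-sided, adjusted over 14987 genes), which is 61.3% of them. The number of higher genes was 3 with DESeq2 and 5 without vehicle replicate 3. Those fits called 5899 and 7364 genes in all, against 7915 by edgeR with all libraries. Over all tested genes 52.8% were called, 27.4% higher and 25.4% lower, and among the 6969 tested genes of at least 30 CPM, where 29 of the 31 lay, 62.7% were called. The count of cholesterol genes called was therefore near the background, and the changes were small. For 19 of the 31 genes the libraries of the groups did not overlap, 61.3% against 57.8% of all tested genes. Log2 fold changes ran from -0.29 for Soat1 to 0.21 for Nr1h3 with a median of -0.03, against a median of 0.0007 over all tested genes. The median size of the log2 change was 0.11 in the 31 genes and 0.15 over all tested genes. A log2 change of 0.5 or more in either direction was reached by 0 of 31, against 16.0% of all tested genes. The 31 genes had a median level of 60.2 CPM, against 25.4 CPM over all tested genes. These comparisons of size were not matched for level, so small changes are not read as particular to the cholesterol genes.

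**Figure D1:**
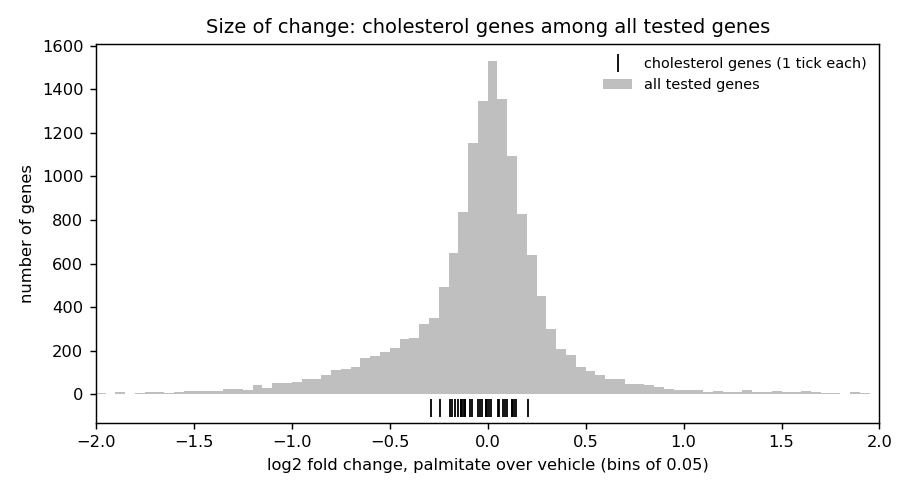
Distribution of log2 fold changes, palmitate over vehicle, for all 14987 tested genes (grey bars, number of genes per bin) with 1 black tick for each of the 31 tested cholesterol genes. The ticks lie between -0.29 and 0.21; 71 genes beyond 2 in either direction fall outside the axis.

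Intervals of the single genes were narrow. They cover the spread among 3 libraries a group, which may be only technical. They therefore bound the difference between these libraries and not an effect of palmitate across independent cultures. For 27 of the 31 genes the 95% interval of the log2 fold change lay wholly within a 1.2-fold change in either direction, as it did for 45.9% of all tested genes. Those whose interval reached further were Lss, Soat1, Mylip and Nr1h3. Tested against a minimum fold of 1.2 (edgeR glmTreat), 0 of 31 genes passed an adjusted p of 0.05, against 15.2% of all tested genes, 6.46% higher and 8.72% lower. At an unadjusted p under 0.05 the same test passed 1 of the 31 genes, which was Soat1, against 3127 of all 14987 tested genes. The shares over all tested genes given here for the interval and the minimum fold were not matched for level either. The authors' deposited table, made with DESeq2, gives a q-value under 0.05 to 12 of the 31, 4 higher and 8 lower. Over all its 23399 genes the share is 24.2%. That share includes genes too low to test here, which the 31 leave out, so the 2 are not alike.

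**Figure D2:**
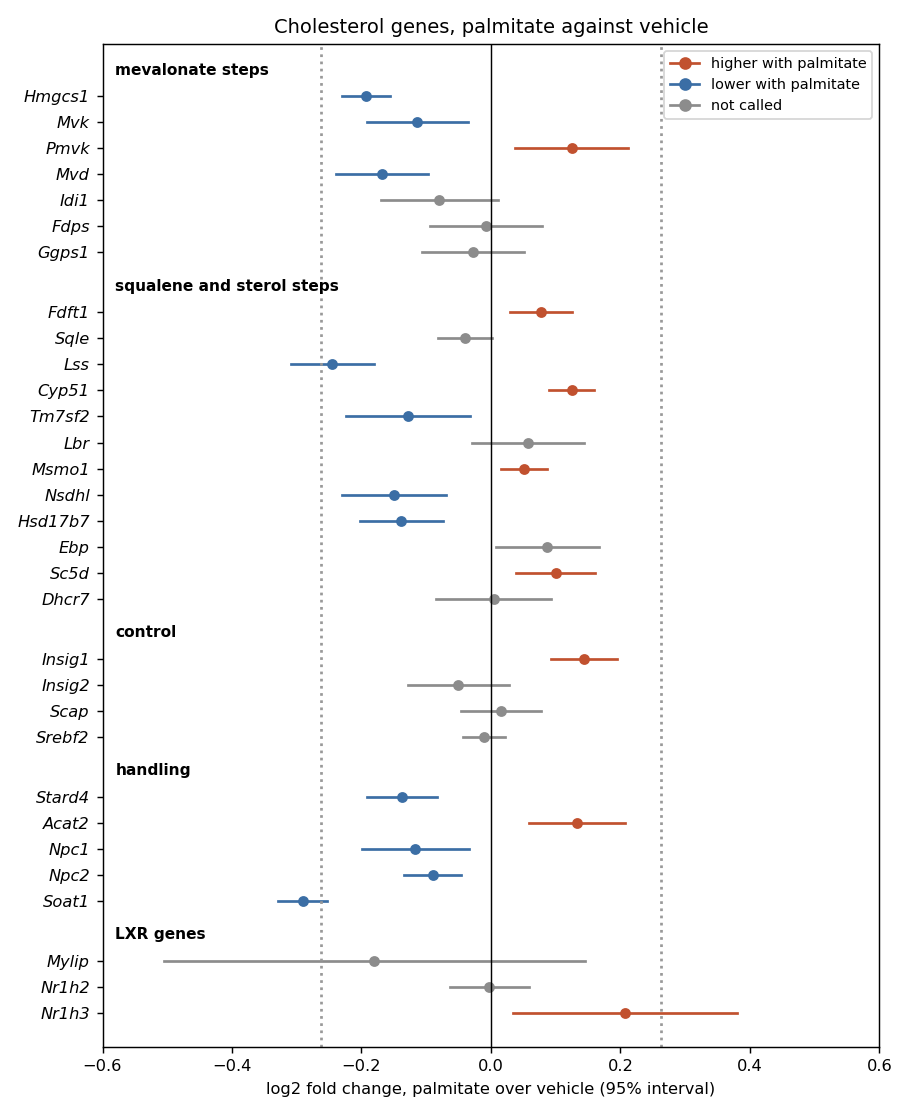
Log2 fold change, palmitate over vehicle, with its 95% interval for each tested cholesterol gene, grouped by role; colours give the call at an adjusted p under 0.05 (edgeR) and dotted lines mark a 1.2-fold change. Higher, lower and uncalled genes are interspersed along the route from Hmgcs1 to Dhcr7, and intervals of 27 genes stay between the dotted lines.

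SREBP2 targets moved both ways. Of the 21, 7 were higher and 8 lower, while 6 missed the threshold, with a median log2 fold change of -0.01 and a range from -0.24 to 0.14. That is 71.4% called, against 52.8% of all tested genes and 62.7% of those of at least 30 CPM. Nothing particular to the targets is read from this count. Their summed level was 3037, 2991 and 3044 CPM in the palmitate libraries, against 3043, 3067 and 3030 CPM in the vehicle libraries. The groups overlapped, and the sum was 3024 ± 28.9 CPM with palmitate and 3047 ± 18.9 CPM with vehicle (SD, n = 3 libraries each). The difference of -23.1 CPM was smaller in size than the SD with palmitate and larger than that with vehicle. Abundant genes weigh most in this sum, and Srebf2 itself, counted among the 21, gave 629 CPM with palmitate and 633 CPM with vehicle. That difference was -1.14 CPM without palmitate replicate 2 and -34.1 CPM without vehicle replicate 3. By DESeq2, 3 of the 21 targets were higher and 6 lower, where 5899 genes were called in all, against 7915 by edgeR.

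**Figure D3:**
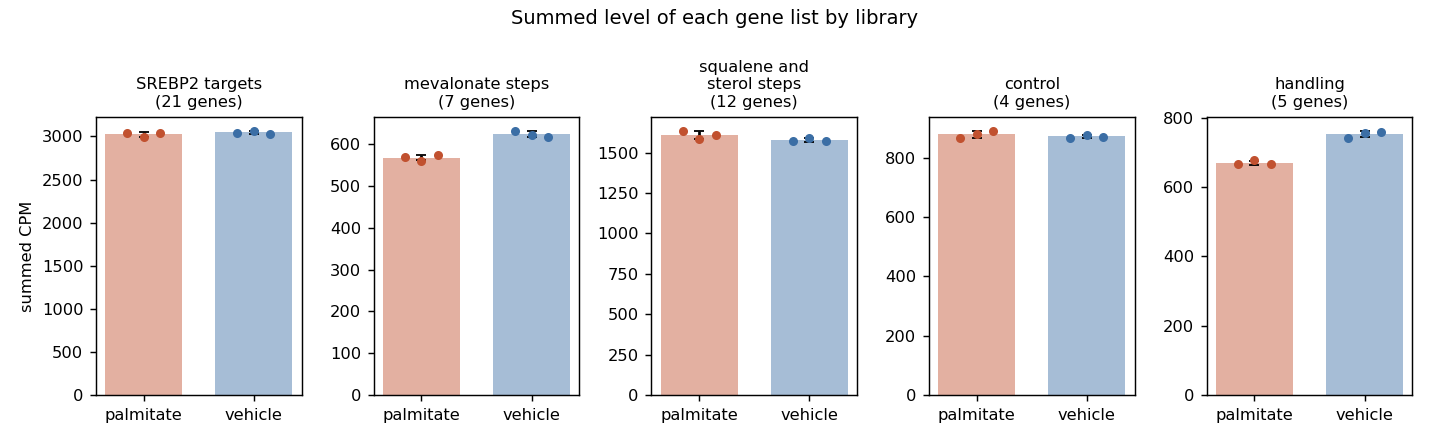
Summed CPM of the SREBP2 targets and of 4 role groups in each library (points), with the mean (bar) and SD (whisker) of 3 libraries per group, palmitate left of vehicle. The sum for the mevalonate steps and the sum for handling were lower in every palmitate library than in any vehicle library, and the sums for the SREBP2 targets and for control overlapped.

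In the mevalonate steps, which build the isoprenoid units, 3 of 7 genes were lower and 1 higher. That is 57.1% called, against 52.8% of all tested genes and 62.7% of those of at least 30 CPM. Hmgcs1 (ENSMUSG00000093930.3) encodes the synthase that makes HMG-CoA. It had 324, 308 and 321 CPM with palmitate, against 367, 363 and 358 CPM with vehicle, so the groups were apart. It fell by 12.5% (log2 fold change -0.19, SE 0.0187, adjusted p = 3.31e-15, edgeR). In the earlier annotation, Gencode vM21, 557 bases of its exons lie opposite the antisense gene Gm48342. The sources used here do not say whether reads were assigned by strand, so reads of such partners cannot be told apart.

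Mvd, the decarboxylase that yields isopentenyl diphosphate, had 53.5, 58.8 and 57.7 CPM with palmitate, against 64.3, 63.1 and 63.7 CPM with vehicle (log2 fold change -0.17, SE 0.0357, adjusted p = 3.53e-05, edgeR). Mevalonate kinase, Mvk, had 43.1, 47.2 and 46.2 CPM with palmitate, against 48.9, 49.1 and 49.6 CPM with vehicle (log2 fold change -0.11, adjusted p = 0.0108, edgeR). Every palmitate library was below every vehicle library for both. Pmvk, the kinase of the step between them, went the other way. Its level was 37.7, 36.3 and 37.7 CPM with palmitate, against 34.7, 34.4 and 33.5 CPM with vehicle, again without overlap (log2 fold change 0.12, adjusted p = 0.0126, edgeR). The calls of Mvk and Pmvk were lost with DESeq2 (adjusted p = 0.0703 and 0.100). Without palmitate replicate 1 the call of Mvk was lost, and without vehicle replicate 3 that of Pmvk.

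The later genes of this branch did not pass the threshold. Idi1, which interconverts the isoprenoid units, had 31.1, 32.0 and 32.1 CPM with palmitate, against 34.8, 33.4 and 32.5 CPM with vehicle (log2 fold change -0.08, 95% interval -0.17 to 0.01, adjusted p = 0.139, edgeR). Of the Idi1 exons, 323 bases lie opposite Gm48574. Fdps, the farnesyl diphosphate synthase, was at 35.7 to 36.8 CPM in palmitate libraries and 35.7 to 37.7 CPM in vehicle libraries (interval -0.09 to 0.08). Its exons share 1124 bases with Gm43738 on the same strand, so its counts are uncertain. Ggps1, which extends farnesyl to geranylgeranyl diphosphate for protein prenylation, was at 43.3 to 44.3 CPM with palmitate and 43.4 to 45.6 CPM with vehicle (interval -0.11 to 0.05). Summed over the 7 genes, the branch stood at 568 ± 6.68 CPM with palmitate and 624 ± 7.60 CPM with vehicle (SD, n = 3 libraries each), and Hmgcs1 made up most of that sum in both groups.

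In the squalene and sterol steps 4 of 12 genes were higher and 4 lower, and 4 missed the threshold. That is 66.7% called, against 52.8% of all tested genes and 62.7% of those of at least 30 CPM. Fdft1, the squalene synthase that commits farnesyl diphosphate to sterols, had 135, 136 and 136 CPM with palmitate, against 131, 129 and 127 CPM with vehicle (log2 fold change 0.08, SE 0.0243, adjusted p = 0.00535, edgeR). Libraries of the groups did not overlap, but the call was lost with DESeq2 (adjusted p = 0.0629), and 774 bases of its exons lie opposite the cathepsin gene Ctsb. Sqle, the epoxidase that is a control point of the route, had 268, 251 and 258 CPM with palmitate, against 260, 272 and 266 CPM with vehicle, and the groups overlapped. Its log2 fold change was -0.04 (adjusted p = 0.0947, edgeR), with adjusted p = 0.0413 without vehicle replicate 1 and 0.0135 without palmitate replicate 1.

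Lss (ENSMUSG00000033105.13), the cyclase that closes the rings to lanosterol, showed the greatest fall among the enzymes of the synthesis route. It had 68.8, 66.5 and 65.3 CPM with palmitate, against 77.8, 79.1 and 80.6 CPM with vehicle, and fell by 15.6% (log2 fold change -0.24, SE 0.0322, adjusted p = 3.28e-10, edgeR). One step on, the message was higher: Cyp51 (ENSMUSG00000001467.6), the lanosterol demethylase, had 437, 424 and 428 CPM with palmitate, against 393, 396 and 392 CPM with vehicle (log2 fold change 0.12, SE 0.0174, adjusted p = 2.23e-09, edgeR). Neither gene's groups overlapped, and both calls held in every alternative but the minimum fold. Lss exons share 381 bases with the antisense gene 4930483K19Rik, and those of Cyp51 share 166 bases with Akap9 on the opposite strand. The ratio of Cyp51 to Lss counts, which does not depend on scaling between libraries and was chosen after their values were seen, was 6.34, 6.37 and 6.56 with palmitate, against 5.05, 5.00 and 4.87 with vehicle. The separation of this ratio follows from that of the genes and adds no test of it.

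Enzymes that remove methyl groups from the sterol and reshape its bonds also parted. Msmo1, the methylsterol oxidase, had 362, 354 and 359 CPM with palmitate, against 343, 350 and 345 CPM with vehicle (log2 fold change 0.05, adjusted p = 0.0123, edgeR). Nsdhl, which acts directly with it, had 41.8, 40.3 and 41.5 CPM with palmitate, against 44.9, 45.1 and 47.1 CPM with vehicle (log2 fold change -0.15, adjusted p = 0.00101, edgeR). Hsd17b7, the ketosteroid reductase of the same complex, had 69.3, 73.1 and 68.1 CPM with palmitate, against 76.8, 77.9 and 76.9 CPM with vehicle (log2 fold change -0.14, adjusted p = 1.65e-04, edgeR). For all 3 the groups were apart, with Msmo1 above and the other two below. The call of Msmo1 was lost with DESeq2 (adjusted p = 0.0791) and without vehicle replicate 1.

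Tm7sf2 and Lbr both encode sterol C14 reductases, and Lbr also anchors chromatin at the nuclear envelope. Tm7sf2 had 29.4, 28.5 and 32.6 CPM with palmitate, against 33.8, 31.9 and 33.2 CPM with vehicle, and the groups overlapped (log2 fold change -0.13, adjusted p = 0.0200, edgeR). Its call was lost with DESeq2 (adjusted p = 0.108) and without vehicle replicate 1, palmitate replicate 1 or palmitate replicate 2. Lbr was at 38.2 to 39.3 CPM with palmitate and 35.8 to 40.1 CPM with vehicle (log2 fold change 0.06, interval -0.03 to 0.14).

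Of the last enzymes of the route, Sc5d, the lathosterol desaturase, had 101, 93.5 and 97.8 CPM with palmitate, against 95.5, 90.4 and 87.3 CPM with vehicle (log2 fold change 0.10, adjusted p = 0.00409, edgeR). Its groups overlapped, and the call was lost with DESeq2 (adjusted p = 0.0604) and without vehicle replicate 3 or palmitate replicate 1. Ebp, the sterol isomerase before it, had 49.3, 45.8 and 47.6 CPM with palmitate, against 42.7, 45.9 and 45.5 CPM with vehicle (log2 fold change 0.09, adjusted p = 0.0589, edgeR). Ebp passed the threshold when low counts were not filtered, and also without vehicle replicate 2 or palmitate replicate 2. Dhcr7, which makes cholesterol from its precursor, was at 34.1 to 34.9 CPM with palmitate and 33.2 to 35.9 CPM with vehicle (interval -0.08 to 0.09). The 12 genes together stood at 1610 ± 25.8 CPM with palmitate and 1577 ± 10.8 CPM with vehicle (SD, n = 3 libraries each), and the groups of this sum overlapped.

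Among the control genes 1 of 4 was called, against 52.8% of all tested genes and 62.7% of those of at least 30 CPM. With 4 genes no more than the count is read from this. Insig1 (ENSMUSG00000045294.12), the sterol-sensing anchor whose gene is itself an SREBP2 target, had 125, 127 and 132 CPM with palmitate, against 117, 114 and 116 CPM with vehicle. It was 10.5% higher, with no overlap (log2 fold change 0.14, SE 0.0257, adjusted p = 1.29e-06, edgeR). Insig2, a second anchor that is not driven by SREBP2 in the same way, had 46.0, 44.9 and 44.0 CPM with palmitate, against 46.1, 46.2 and 47.3 CPM with vehicle (log2 fold change -0.05, interval -0.13 to 0.03, adjusted p = 0.287, edgeR). The ratio of Insig1 to Insig2 counts was 2.72, 2.83 and 2.99 with palmitate, against 2.53, 2.47 and 2.46 with vehicle. Since Insig1 was higher and Insig2 lower in each palmitate library than in any vehicle library, the ratio had to separate and is given as a description.

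Srebf2 itself had 617, 631 and 639 CPM with palmitate, against 627, 641 and 632 CPM with vehicle (log2 fold change -0.01, interval -0.04 to 0.02, adjusted p = 0.608, edgeR). Scap, its escort, had 78.7, 78.3 and 77.2 CPM with palmitate, against 79.2, 76.7 and 75.9 CPM with vehicle (log2 fold change 0.02, interval -0.05 to 0.08, adjusted p = 0.692, edgeR). The groups overlapped for both genes. In Gencode vM21, 785 bases of Scap exons lie opposite 5830462I19Rik. The counts report message level only, and cleavage of the SREBP2 protein was not measured.

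**Figure D4:**
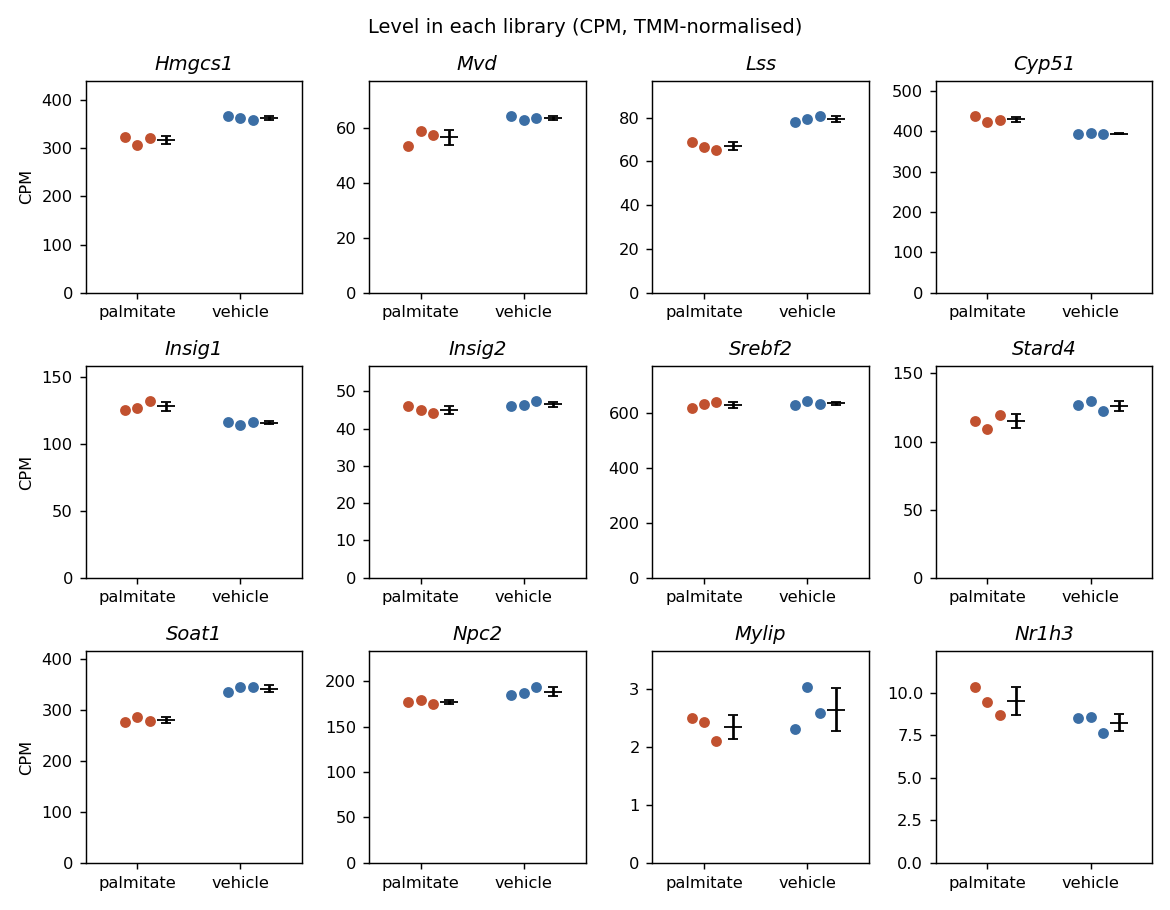
CPM of 12 cholesterol genes in each library (points, palmitate left of vehicle) with the mean and SD of 3 libraries at the right of each group; each panel starts at 0. Hmgcs1, Mvd, Lss, Stard4, Soat1 and Npc2 were lower in all palmitate libraries and Cyp51, Insig1 and Nr1h3 were higher; Insig2, which missed the threshold, was lower in all palmitate libraries by little, while Srebf2 and Mylip overlapped.

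The 5 genes of cholesterol handling were all called, 4 lower and 1 higher. Of all tested genes of at least 30 CPM, a level that these 5 also reached, 62.7% were called, and with 5 genes no more than the count is read from this. Soat1 (ENSMUSG00000026600.13), which esterifies cholesterol with a fatty acid for storage in lipid droplets, showed the greatest fall among the 31 tested cholesterol genes. It had 276, 286 and 278 CPM with palmitate, against 335, 345 and 346 CPM with vehicle, and fell by 18.2% (log2 fold change -0.29, SE 0.0190, adjusted p = 3.60e-24, edgeR). In size this change was at or above that of 70.6% of all tested genes. Stard4, a carrier that moves sterol between membranes, had 115, 110 and 120 CPM with palmitate, against 127, 129 and 122 CPM with vehicle (log2 fold change -0.14, SE 0.0272, adjusted p = 1.25e-05, edgeR).

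Npc2 and Npc1 pass cholesterol from endocytosed lipoproteins out of the lysosome. Npc2 had 177, 180 and 174 CPM with palmitate, against 184, 187 and 194 CPM with vehicle (log2 fold change -0.09, adjusted p = 3.31e-04, edgeR). Npc1 had 41.9, 42.2 and 38.9 CPM with palmitate, against 42.7, 44.4 and 46.0 CPM with vehicle (log2 fold change -0.12, adjusted p = 0.0133, edgeR). Each of these 4 genes was lower in every palmitate library. The call of Npc1 was lost with DESeq2 (adjusted p = 0.0851) and without vehicle replicate 3 or palmitate replicate 3, and its exons overlap those of Rmc1 by 192 bases on the opposite strand. Acat2, a cytosolic thiolase that supplies acetoacetyl-CoA to the first step of the route, had 57.3, 59.4 and 54.4 CPM with palmitate, against 53.2, 51.0 and 51.9 CPM with vehicle (log2 fold change 0.13, SE 0.0371, adjusted p = 0.00164, edgeR). Mice have a close relative, Acat3, that can share its reads, so this value is uncertain.

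The LXR targets among the chosen genes had low levels. Abcg1, a cholesterol exporter, had 1, 0 and 1 counts with palmitate and 0 in each vehicle library, too few to test or to compare. Mylip, which encodes a ubiquitin ligase that marks lipoprotein receptors for breakdown, had 2.50, 2.44 and 2.11 CPM with palmitate, against 2.32, 3.05 and 2.58 CPM with vehicle. Its groups overlapped (log2 fold change -0.18, adjusted p = 0.371, edgeR), and the interval from -0.51 to 0.15 includes falls of more than 1.2-fold, so a fall of that size is not excluded. The estimate was -0.07 without vehicle replicate 2 and -0.11 without palmitate replicate 3. With 1 tested gene among these targets, no count over them can be set beside that of the SREBP2 targets. Lpcat3 and Pltp, which LXR also switches on in mouse liver, were both higher with palmitate and are given with the export genes. Both were picked with their values known, so they do not stand for LXR targets as a set. Srebf1, another gene that LXR switches on there, was not called and its groups overlapped (log2 fold change 0.02, adjusted p = 0.364, edgeR). Activity of LXR was not tested.

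The receptors were expressed. Nr1h2, the widely expressed LXR beta, had 79.4, 84.1 and 83.2 CPM with palmitate, against 82.9, 80.4 and 83.7 CPM with vehicle, and the groups overlapped (log2 fold change -0.002, interval -0.06 to 0.06, adjusted p = 0.957, edgeR). Nr1h3, LXR alpha of liver, gut and macrophages, had 10.4, 9.49 and 8.71 CPM with palmitate, against 8.52, 8.59 and 7.65 CPM with vehicle. Every palmitate library was above every vehicle library, the nearest pair by little (log2 fold change 0.21, SE 0.0871, adjusted p = 0.0390, edgeR). That call was lost with DESeq2 (adjusted p = 0.184) and without vehicle replicate 3, palmitate replicate 1 or palmitate replicate 2.

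Levels can be compared between genes per length, here in CPM per kilobase of the longest coding transcript of Gencode vM21. On that scale Msmo1 was highest, at 175 with palmitate and 169 with vehicle, followed by Srebf2 at 124 with palmitate and 125 with vehicle. The next 3 in both groups were Cyp51 at 109 with palmitate and 100 with vehicle, Sqle at 93.9 with palmitate and 96.5 with vehicle, and Hmgcs1 at 91.6 with palmitate and 105 with vehicle. Hmgcs1 was the lowest of these 3 with palmitate and the highest of them with vehicle. At the other end of the tested genes stood Mylip at 0.767 with palmitate and 0.864 with vehicle, Nr1h3 at 4.87 with palmitate and 4.22 with vehicle, and Npc1 at 7.85 with palmitate and 8.49 with vehicle. The choice of transcript sets these levels.

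Other genes around the route were taken from 4 lists. Their counts of calls stand beside 27.4% higher and 25.4% lower over all tested genes, 52.8% in all, and with 7 to 16 tested genes a list nothing particular to a list is read from them. For SREBP processing and sterol-regulated degradation, 5 of 12 genes were higher and 3 lower, with a median log2 fold change of 0.02. The proteases that release SREBP parted: Mbtps1, the site-1 protease, was at 350 ± 3.69 CPM with palmitate and 392 ± 7.49 CPM with vehicle (log2 fold change -0.17), and Mbtps2, the site-2 protease, at 41.8 ± 2.30 CPM with palmitate and 36.7 ± 1.86 CPM with vehicle (log2 fold change 0.18; SD, n = 3 libraries each). Erlin2, a membrane scaffold of sterol-regulated degradation, rose by 0.29 on the log2 scale, and Syvn1, a ubiquitin ligase of the endoplasmic reticulum, fell by 0.20. For lysosomal release, transfer and esters, 3 of 16 tested genes were higher and 4 lower. Genes of ester breakdown were among the lower: Lipa, the lysosomal acid lipase, had a log2 fold change of -0.30, and Nceh1, a hydrolase of cholesterol esters outside the lysosome, one of -0.28. The lipoprotein receptor gene Scarb1 rose by 0.28 and the sterol-binding protein gene Osbpl11 by 0.17.

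For oxysterols, LXR partners and export, 4 of 7 tested genes were higher and 2 lower, with a median of 0.08. Ch25h, Cyp7b1 and Abcg5 were not analysed here. Lpcat3, a phospholipid acyltransferase that LXR switches on in mouse liver, stood at 202 ± 8.79 CPM with palmitate and 152 ± 4.40 CPM with vehicle (log2 fold change 0.41, SE 0.0246, adjusted p = 9.04e-22, edgeR; SD, n = 3 libraries each). Pltp, a phospholipid transfer protein gene that LXR also switches on there, stood at 4.01 ± 0.0965 CPM with palmitate and 3.08 ± 0.111 CPM with vehicle (log2 fold change 0.38, SE 0.137, adjusted p = 0.0150, edgeR; SD, n = 3 libraries each). The corepressor gene Ncor1 rose by 0.15, while the transporter gene Abca7 had a log2 fold change of -0.33 and Rxra, a partner receptor of LXR, one of -0.15. Rxrb, another partner receptor, went the other way, with a log2 fold change of 0.08. In the isoprenoid branch from farnesyl diphosphate, 4 of 12 genes were higher and 2 lower. Subunits of the enzymes that attach these isoprenoids to proteins moved both ways. Fnta, the alpha subunit shared by protein farnesyltransferase and the type I enzyme for geranylgeranyl groups, rose by 0.35 on the log2 scale. Of its partners, Fntb of the farnesyltransferase rose by 0.28 and Pggt1b of the type I enzyme fell by 0.09. The subunits of the enzyme that attaches geranylgeranyl groups to Rab proteins also parted, with Rabggta higher by 0.09 and Rabggtb lower, at a log2 fold change of -0.16. All genes given with a log2 fold change in this paragraph and the one before it passed an adjusted p of 0.05 in the edgeR test.

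For the route as a whole, the authors' deposited gene set table lists steroid biosynthesis, 18 genes, with a normalized enrichment score of -1.13 and a q-value of 0.629. Their terpenoid backbone set, 22 genes, has a score of 0.64 and a q-value of 0.931 in the authors' deposited table.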

How the data were processed

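Gene counts of 6 polyadenylated RNA libraries, 3 palmitate and 3 vehicle, were analysed. The deposited raw counts were made with STAR 2.6.1 and HTSeq on mm39, and DESeq2 1.34.0 was used by the authors, per the submitters' processing notes. The authors' deposited tables give log2 fold changes, p-values and q-values from DESeq2 and an enrichment score per gene set, per the column description. A stranded kit was used, per the labels' protocols.

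Here edgeR 4.0.16 in R 4.3.3 (TMM, filterByExpr with a minimum count of 10, robust glmQLFit, glmQLFTest, two-sided, Benjamini-Hochberg over all tested genes, threshold 0.05) was fitted without a replicate block and was tested on simulated data. SE is the log2 fold change over the root of F. Alternatives were DESeq2 1.42.0, limma-voom (limma 3.58.1), glmTreat, size factors, no filter, a replicate block, thinning and leaving out each library. The cholesterol genes, lists and naming rules were chosen with earlier results of these data known. Every cholesterol gene was named, and per other list up to 2 called genes each way by p. Pltp, Rabggta, Rxrb and Srebf1 were named beyond that rule. The 30 CPM level was set after seeing the results. With 18.9 to 22.9 M counts per library, low genes are least precise. Figures used matplotlib 3.10.9.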

Additional observations from a re-analysis of the deposited data

How the results depend on the processing

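No call of a cholesterol gene turned to the other direction under any alternative, and 21 of the 31 tested genes kept their call under each of 12 alternatives other than a minimum fold. Of the 19 called genes, 11 did so. With glmTreat against a 1.2-fold change 2275 genes were called over the whole table and 0 of the cholesterol genes, higher or lower, SREBP2 targets included, so that 12 of 31 genes had the same call as reported. DESeq2 called 5899 genes over the whole table, against 7915 with edgeR. With DESeq2 the higher cholesterol genes numbered 3, all SREBP2 targets, and 8 calls were lost: Mvk, Pmvk, Fdft1, Tm7sf2, Msmo1, Sc5d, Npc1 and Nr1h3. The cause was not tested. Leaving out 1 library at a time gave 5 to 9 higher and 10 to 11 lower genes, with 5 higher without vehicle replicate 3, and 7260 to 7406 called genes in all. Among SREBP2 targets it gave 5 to 8 higher and 7 to 8 lower, and a palmitate minus vehicle difference of summed CPM from -34.1 to -1.14, with -1.14 without palmitate replicate 2, against -23.1 with all libraries. A replicate block changed no call of a cholesterol gene and gave 7933 called genes, against 7915. Same-numbered libraries deviated together with correlations of -0.004, 0.008 and 0.007, so the numbers do not show pairing. Median-of-ratios size factors, limma-voom and thinning to the shallowest library changed no call among the 31 genes. Counts of Abcg1 were too few to test at this depth.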
